A study of Mus musculus with 6 samples.

Results

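The genes described here are 6 ion channel genes of the mouse heart: the sodium channel alpha subunit gene Scn4a, the beta subunit genes Scn2b, Scn3b and Scn4b, and the HCN channel genes Hcn2 and Hcn4. They were taken by symbol from a table of 46452 genes, and all 6 were found. The hearts came from mice 10 days old, of which 3 were labelled Nat10flox/flox (Nat10 flanked by loxP sites on both copies, used as controls here) and 3 Nat10-CKO (a conditional knockout of Nat10). NAT10 is an RNA acetyltransferase, and the series asks what it does in heart development. The sources used here do not give the Cre driver, the deleted exons, the strain or the sex, so the cells in which Nat10 was targeted are not known from them. The submitters describe the libraries as independent biological replicates.

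Voltage-gated sodium channels open on depolarization and carry the fast inward current that starts the action potential. Each has a large pore-forming alpha subunit and smaller beta subunits, single-pass membrane proteins that adjust gating and surface level. Scn4a encodes the alpha subunit best known from skeletal muscle. HCN channels open on hyperpolarization, are favoured by cyclic AMP and carry the pacemaker current. Hcn4 is the main form of the sinoatrial node, and Hcn2 the form usually found in working ventricular muscle.

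Levels are given in FPKM, which corrects for gene length and library size, so levels of different genes can be set side by side. The libraries held 31155521 to 38051266 reads in genes. Nat10 itself ranged over 3.75 to 4.71 FPKM in the controls and 8.28 to 10.2 FPKM in the Nat10-CKO-labelled libraries. The target gene therefore goes against the label, and every direction given here refers to the labels. Control replicate 1 stood apart by its nerve transcripts. Its summed level of 16 neuron markers was 624 FPKM, against 23.9 and 33.8 FPKM in the other 2 controls and 49.4 to 78.9 FPKM in the Nat10-CKO-labelled libraries. In each of those 5 libraries 12 to 13 of the 16 genes were under 1 FPKM, so these sums rest on few genes. The neuronal genes Prph and Uchl1 reached 117 and 219 FPKM in control replicate 1, although Slc18a3, a marker of cholinergic neurons, had no read in any library. For 8 Schwann cell markers the sum was 110.3 FPKM in it and 5.80 to 7.62 FPKM in the other 5 libraries. Heart muscle markers such as Tnnt2 (3395 to 4301 FPKM) were high throughout. Of 9 atrial muscle markers, Sln, Myl4 and Myl7 reached at most 0.552 FPKM and Bmp10 had no read, while Pam, which is not specific to the atrium, was 73.1 to 124 FPKM and made up most of their sum.

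Groups were compared with limma on log2(FPKM + 1) over the 11996 genes with a mean of at least 1 FPKM, and a Benjamini-Hochberg adjusted p under 0.05 counted as a call. Of the 6 channel genes 5 passed that filter, and Scn2b was too low. Scn4a was called lower and none of the 5 was called higher. Of all tested genes 40.5% were called, 24.4% higher and 16.0% lower. Mitochondrial genes took 16.6 to 18.3% of the reads in the controls and 7.56 to 9.26% in the Nat10-CKO-labelled libraries. With them left out of the scaling, 41.8% of all calls were higher, in place of 60.4%, and Scn4a, Hcn2 and Hcn4 were all called lower. Under that scaling 24.5% of tested genes were called lower. The groups did not overlap for Scn4a, Hcn2 and Hcn4, all 3 lower in the Nat10-CKO-labelled libraries and none higher, against 24.4% of tested genes lower and 31.5% higher without overlap. In bulk heart RNA, fewer cells of a type and less RNA per cell cannot be told apart.

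**Figure D1:**
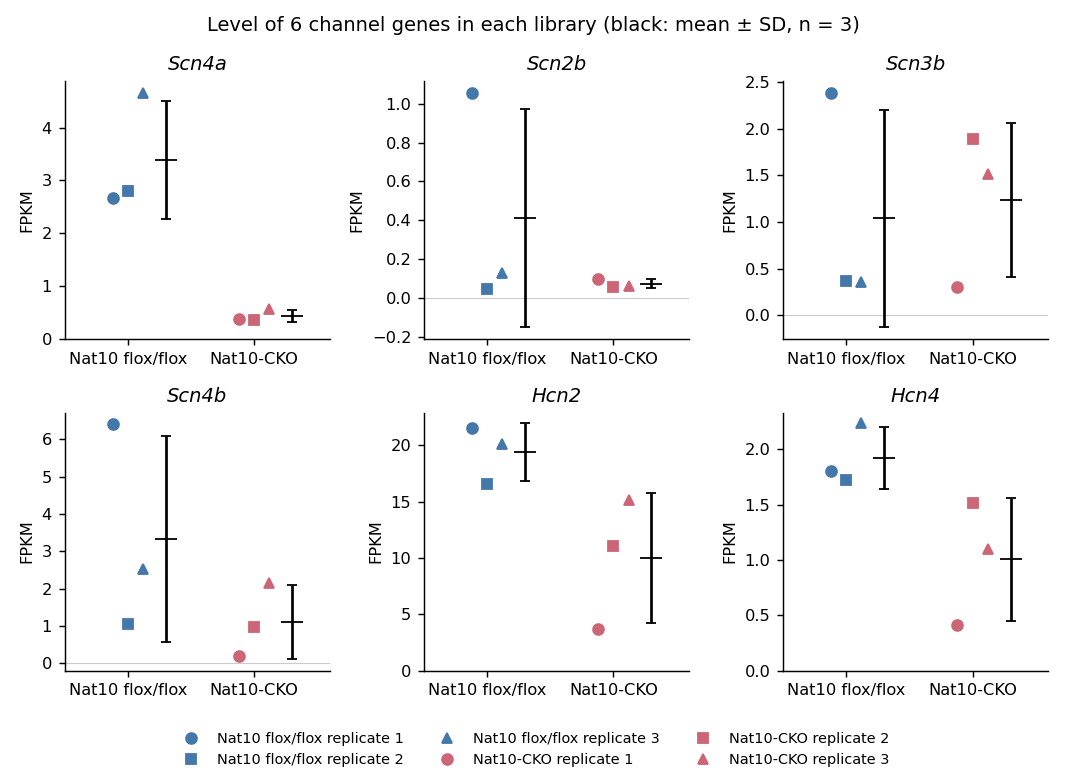
FPKM of the 6 channel genes (vertical axes, each panel with its own range) in 3 Nat10 flox/flox and 3 Nat10-CKO libraries, 1 point per library, with the mean and SD of each group. Scn4a separates fully (2.66 to 4.66 against 0.352 to 0.560 FPKM), Scn2b, Scn3b and Scn4b are highest in control replicate 1, and Hcn2 and Hcn4 are lowest in Nat10-CKO replicate 1.

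Scn4a (gene ID 110880, GRCm39 chromosome 11, 106208366 to 106256407, minus strand) showed the clearest difference of the 6. It was 2.66, 2.81 and 4.66 FPKM in the controls (895, 734 and 1368 reads). In the Nat10-CKO-labelled libraries it was 0.385, 0.352 and 0.560 FPKM (117, 101 and 157 reads). Every Nat10-CKO value lay well below the lowest control value. With means of 3.38 ± 1.11 and 0.432 ± 0.112 FPKM (SD, n = 3 per group), Scn4a fell 7.82-fold. The log2 fold change was -1.59 ± 0.20 (SE), with adjusted p = 0.00134 by limma. The log2(FPKM + 1) scale understates the change of low genes such as this one. The difference was 8.64-fold without control replicate 1, which had the lowest Scn4a level of its group. Scn4a was called lower under all 16 alternative settings that could test it. Its mean of 1.91 FPKM over all 6 libraries passed the filter only through the controls. With no filter its limma adjusted p was 0.00658, where 6.63% of genes were called lower.

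Most skeletal muscle markers were near the floor, with 14 to 16 of 16 genes under 1 FPKM in each library. The summed level of 16 such genes was 2.26 to 2.51 FPKM in the controls and 3.52 to 4.43 FPKM in the Nat10-CKO-labelled libraries. Of the 16, 1 passed the filter and was not called. The part of skeletal muscle in the Scn4a values was not tested. Myf5 and Pax7, which mark muscle precursors, had no read in any library.

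A gene on the opposite strand shares the 5′ end of Scn4a. Prr29 (gene ID 75573, GRCm39 chromosome 11, 106255838 to 106267940, plus strand) starts 569 bases inside Scn4a and runs away from it. It was 1.67, 1.59 and 1.96 FPKM in the controls and 0.150, 0.0957 and 0.147 FPKM in the Nat10-CKO-labelled libraries. Prr29 thus showed the same separation at lower levels, though its overall mean missed the filter and it was not tested. Whether reads were assigned by strand was not stated in the sources, so reads from the bases shared by both genes cannot be told apart.

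Sequence upstream of Scn4a is shown because Scn4a was the gene called lower, with that of Hcn4 as a second gene whose groups did not overlap. The windows searched run from 250 bases before to 50 after the start in the deposited coordinates, which lies 22 bases from the GENCODE start for Scn4a and 100 bases for Hcn4. Printed are the parts outside every GENCODE exon, chr11:106256477-106256657 (minus strand) and chr9:58729982-58730131 (plus strand), read from GRCm39 and written 5′ to 3′ on the strand of the gene. The Hcn2 window lies wholly within annotated exons and is not printed. Capitals mark GC boxes (GGGCGG on either strand) and E-boxes (CANNTG).
Scn4a: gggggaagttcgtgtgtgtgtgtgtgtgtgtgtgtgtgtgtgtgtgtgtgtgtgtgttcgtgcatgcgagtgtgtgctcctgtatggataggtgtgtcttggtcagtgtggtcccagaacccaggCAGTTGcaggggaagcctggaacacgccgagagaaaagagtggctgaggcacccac
Hcn4: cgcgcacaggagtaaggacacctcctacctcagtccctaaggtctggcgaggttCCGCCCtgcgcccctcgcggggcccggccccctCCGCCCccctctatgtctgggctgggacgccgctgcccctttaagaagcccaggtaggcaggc

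The stretch of 181 bases upstream of Scn4a held 1 E-box, no GC box and a long GT repeat. It lies within Prr29 and does not reach the Scn4a start. The 119 window bases nearer the gene are in annotated exons and are not printed. The stretch of 150 bases before Hcn4 held 2 GC boxes and no E-box. Whole windows of 300 bases were compared with those of 11025 tested protein-coding genes, of which 55.5% held a GC box and 66.0% an E-box. The Scn4a window was 59.3% G or C with 8 CG dinucleotides and 3 E-boxes, and the Hcn4 window 71.7% with 31, where the median was 58.0% and 17. Neither window held a TATA box (TATAAA, in 9.40% of windows), a GATA site (AGATAA, 7.90%), an NKX2 site (CAAGTG, itself an E-box, 12.5%) or the left part of the RE1 element (TTCAGCACC, 0.354%), searched on both strands. The T-box site GGTGTG (18.5% of windows) occurred once, in Scn4a. These are matches of letters and do not show binding.

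Of the other alpha subunits described here, Scn7a, Scn10a and Scn11a were tested and not called over all 6 libraries. Without both replicates 1, a setting added after the data were seen, Scn10a was called lower (log2 fold change -0.59, limma adjusted p = 0.0148). In that setting 15.9% of tested genes were called lower. Scn10a was under 1 FPKM in each library left there, so the filter on those libraries alone would not have tested it. Scn7a, a sodium-sensing relative, was 3.53 ± 1.80 against 2.66 ± 0.330 FPKM. Scn10a and Scn11a, alpha subunits of sensory neurons, were 14.1 and 10.7 FPKM in control replicate 1 and at most 0.745 and 0.0594 FPKM in the other 5 libraries. Both thus passed the filter only through control replicate 1. Scn1a, Scn2a, Scn3a, Scn8a and Scn9a stayed under the filter. Scn9a, another sensory neuron subunit, was 2.30 FPKM in control replicate 1 and had no read in the other 5 libraries.

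**Figure D2:**
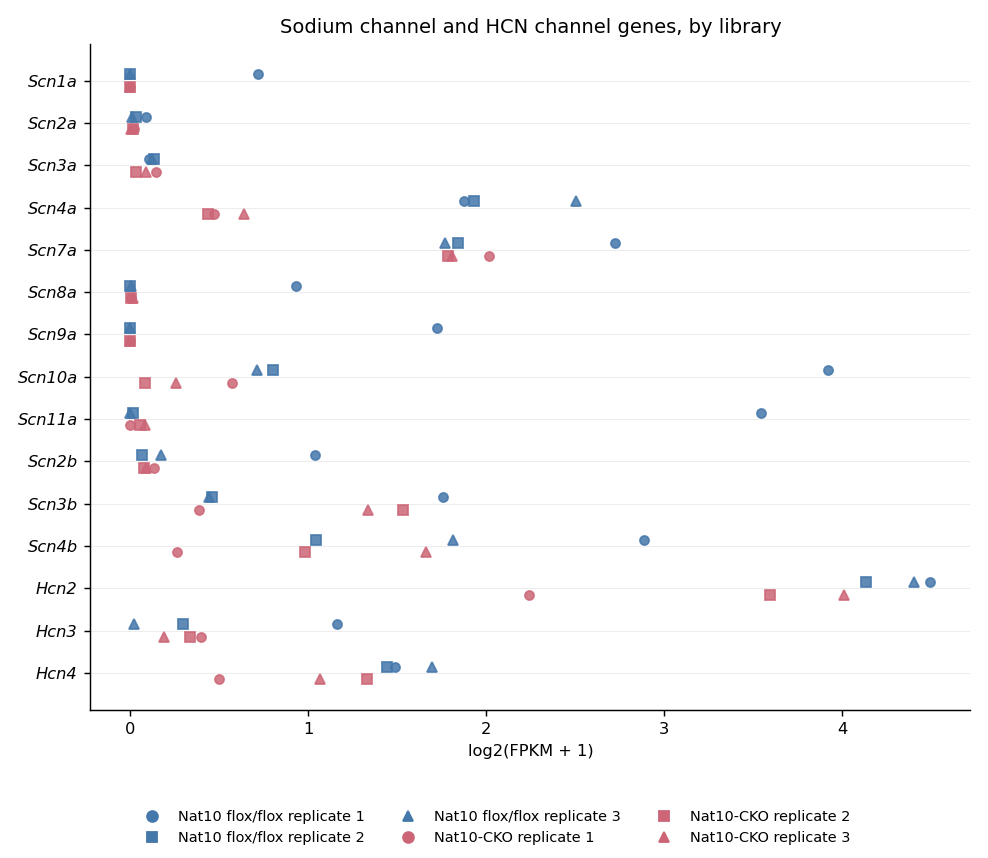
log2(FPKM + 1) (horizontal axis) of 15 sodium channel alpha subunit, beta subunit and HCN genes (rows), 1 point per library. Control replicate 1 is the highest of the 6 libraries for 12 of the 15 genes, and Scn3a, Scn4a and Hcn4 are the exceptions.

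Control replicate 1, the library with the nerve transcripts, held the highest value of each of the 3 beta subunit genes Scn2b, Scn3b and Scn4b. Scn2b (gene ID 72821, GRCm39 chromosome 9, 45029174 to 45041368, plus strand) encodes a beta subunit that is joined to the alpha subunit by a disulfide bond. It was 1.06 FPKM in that library (202 reads). The other 2 controls had 0.0471 and 0.126 FPKM (7 and 21 reads), and the Nat10-CKO-labelled libraries 0.0982, 0.0552 and 0.0627 FPKM (17, 9 and 10 reads). That single library was 12.2-fold above the mean of the other 2 controls. The control mean was 5.69-fold the Nat10-CKO mean with it and 1.20-fold without it. With no filter, limma gave Scn2b an adjusted p of 0.508. The part of the nerve transcripts in these values was not tested.

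Scn4b (gene ID 399548, GRCm39 chromosome 9, 45049922 to 45065453, plus strand), also attached by a disulfide bond and known for its part in resurgent sodium current, was 6.40, 1.06 and 2.52 FPKM in the controls. It was 0.200, 0.975 and 2.16 FPKM in the Nat10-CKO-labelled libraries. The groups overlapped, and the values within each group spread widely. Means of 3.33 ± 2.76 and 1.11 ± 0.987 FPKM gave a log2 fold change of -0.95 ± 0.53 (SE), which was not called (limma adjusted p = 0.194). The control mean was 2.99-fold the Nat10-CKO mean, 1.61-fold without control replicate 1, 5.67-fold without Nat10-CKO replicate 3 and 1.14-fold without both replicates 1. Scn4b was called under none of its 16 alternative settings, with a smallest limma adjusted p of 0.0864.

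Scn3b (gene ID 235281, GRCm39 chromosome 9, 40180512 to 40202914, plus strand) encodes a beta subunit that binds the alpha subunit without a disulfide bond. It was 2.39, 0.372 and 0.358 FPKM in the controls (412, 50 and 54 reads). In the Nat10-CKO-labelled libraries it was 0.307, 1.89 and 1.52 FPKM (48, 278 and 219 reads). Replicate 1 of each group thus lay beyond the other group's remaining values. Over all 6 libraries the log2 fold change was 0.20 ± 0.45 (SE) and was not called (limma adjusted p = 0.749). Scn3b passed the filter only through control replicate 1, since its mean over the other 5 libraries was 0.889 FPKM. Without both replicates 1, Scn3b was 4.66-fold higher in the Nat10-CKO-labelled libraries, a setting added after the data were seen. Over the 2 libraries left per group the log2 fold change was 0.98 ± 0.12 (SE) with a limma adjusted p of 0.00420, where 24.4% of tested genes were called higher and 15.9% lower. The 2 libraries left out are those whose Scn3b values ran against this difference, so the call is no test of it. The call was not made with either replicate 1 restored.

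Hcn2 (gene ID 15166, GRCm39 chromosome 10, 79552468 to 79571942, plus strand) had the highest level of the 6 genes. It was 21.6, 16.6 and 20.2 FPKM in the controls and 3.73, 11.1 and 15.1 FPKM in the Nat10-CKO-labelled libraries. All 3 Nat10-CKO values lay below the lowest control value, with replicate 1 far below the other 2. Means of 19.4 ± 2.58 and 9.98 ± 5.78 FPKM gave a ratio of 1.95 and a log2 fold change of -1.06 ± 0.43 (SE), which missed the threshold (limma adjusted p = 0.0903). Without Nat10-CKO replicate 1 the ratio was 1.48 and the log2 fold change -0.54, with an adjusted p of 0.0489. Without Nat10-CKO replicate 3 they were 2.63, -1.43 and 0.0372. Leaving out any other single library gave no call, with a limma adjusted p of 0.122 to 0.192. Without both replicates 1 the adjusted p was 0.0985.

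Hcn4 (gene ID 330953, GRCm39 chromosome 9, 58730232 to 58770458, plus strand) was far less abundant. It was 1.81, 1.72 and 2.24 FPKM in the controls and 0.412, 1.51 and 1.10 FPKM in the Nat10-CKO-labelled libraries. The groups were separate, with Nat10-CKO replicate 1 again lowest. Means of 1.92 ± 0.279 and 1.01 ± 0.556 FPKM gave a ratio of 1.91. The log2 fold change of -0.58 ± 0.23 (SE) missed the threshold (limma adjusted p = 0.0841). Without Nat10-CKO replicate 1 the ratio was 1.47 and the adjusted p 0.124, and without Nat10-CKO replicate 2 they were 2.55 and 0.0488. Leaving out any other single library gave no call.

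Hcn2 held 84.9%, 89.0% and 89.7% of the summed HCN level in the controls and 76.8%, 85.1% and 90.7% in the Nat10-CKO-labelled libraries (exact permutation test, two-sided, p = 0.7, and 0.84 after adjustment over the 6 family shares computed). Hcn4 held 7.11 to 9.96% against 6.56 to 11.6% (exact permutation p = 1.0, also when adjusted). A test of 3 against 3 libraries cannot reach 0.05, so these values do not show that the mix was the same. Hcn3 was under the filter, at 0.0149 to 1.24 FPKM in the controls and 0.140 to 0.317 FPKM in the others, and was highest in control replicate 1.

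Heart muscle markers were also lowest in Nat10-CKO replicate 1. Their sum over 10 genes was 14239 FPKM there, 21386 and 24257 FPKM in the other 2 Nat10-CKO-labelled libraries and 22416 to 27271 FPKM in the controls. Of these genes 2 were called lower and 0 higher, and none was at 0. Their part in the HCN values was not tested. Sinoatrial node markers summed to 31.1 to 42.4 FPKM against 22.7 to 33.5 FPKM, with 4 of 9 tested, 2 called lower and 0 higher. Of those 2, Rgs6 is also on the list of cyclic AMP and pacemaker signalling. Of the 9 node markers, 2 were under 1 FPKM in control replicate 1 and 5 to 6 in each of the other libraries. Shox2 reached at most 0.359 FPKM. Isl1 had 300 reads in control replicate 1, the library with the nerve transcripts, and none in the other 5 libraries. Atrial markers summed to 107 to 111 FPKM against 87.1 to 143 FPKM, with 4 of 9 tested, 1 called lower and 0 higher. These counts stand against 24.4% higher and 16.0% lower among all tested genes.

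**Figure D3:**
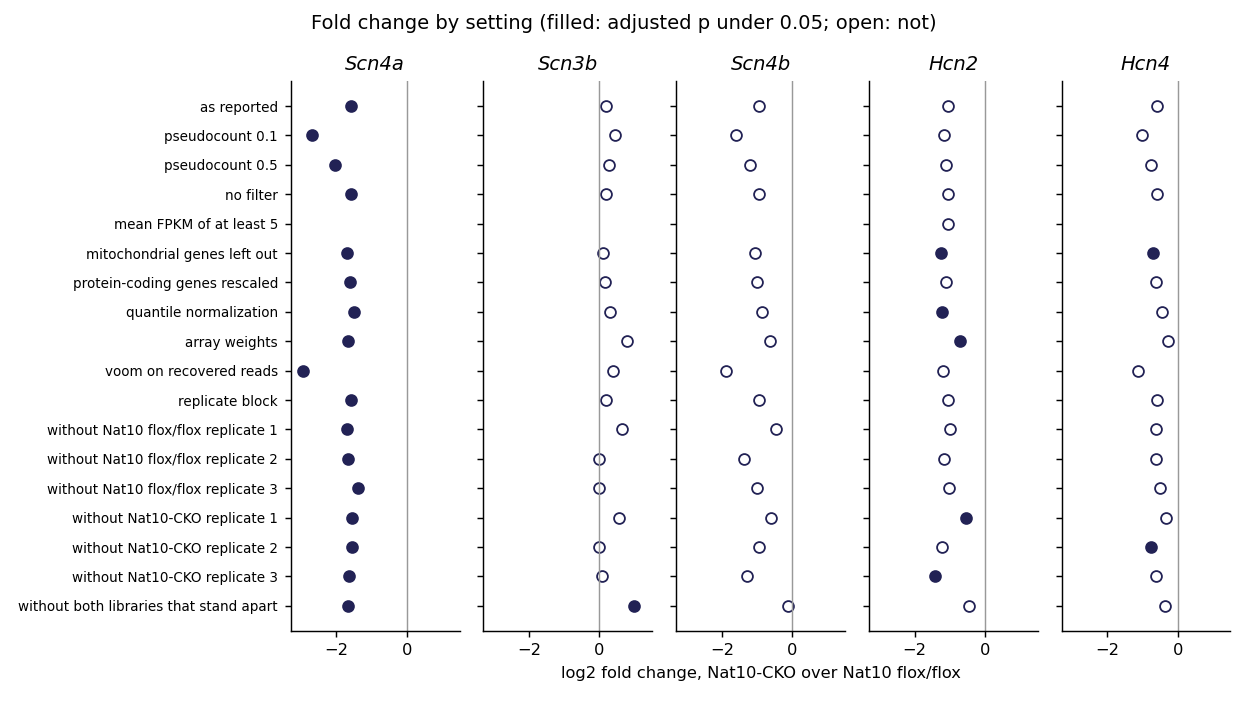
log2 fold change (horizontal axis, Nat10-CKO over Nat10 flox/flox) of the 5 tested channel genes under each setting (rows), with filled points where the limma adjusted p was under 0.05. Scn4a is called in every setting that tested it, Hcn2 in 5 of 17 and Hcn4 in 2 of 16 alternatives, Scn4b in none, and Scn3b only without both replicates 1.

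Within each library Hcn2 was the highest of the 6 genes and Scn2b the lowest. In the controls Scn4a came next after Hcn2 in replicates 2 and 3, and Scn4b did in replicate 1. The control means of Scn4a and Scn4b, 3.38 and 3.33 FPKM, did not differ beyond their spread, nor did those of Hcn4 and Scn3b, 1.92 and 1.04 FPKM. In Nat10-CKO replicates 2 and 3 Scn4a was under Scn3b, Scn4b and Hcn4. The Nat10-CKO means of those 3 genes, 1.24, 1.11 and 1.01 FPKM, lay within their spread.

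Genes for proteins that bind cardiac sodium channels changed in both directions. Of 15 on this list 12 were tested, 4 higher and 2 lower, with a median log2 fold change of 0.27 against 0.03 over all tested genes. Leaving out any library other than Nat10-CKO replicate 3 left 1 of the 2 lower calls. Slmap rose from 13.2 ± 2.23 to 32.6 ± 3.57 FPKM. Cav3, the muscle caveolin, rose from 45.6 ± 0.265 to 83.1 ± 11.9 FPKM. Fgf13, an intracellular factor that binds the C-terminus of the channel, fell from 9.03 ± 2.56 to 3.25 ± 0.694 FPKM. Of 8 genes for partners of HCN channels 6 were tested, 2 higher and 1 lower, with a median of 0.10. Vapa rose from 9.45 ± 0.370 to 16.6 ± 1.61 FPKM, and Kctd3 rose 1.51-fold. Mrvi1, also named Irag1, fell from 2.19 ± 0.288 to 1.23 ± 0.145 FPKM. That call was lost without control replicate 2 (adjusted p = 0.0684) or Nat10-CKO replicate 2 (0.0514).

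For cyclic AMP and pacemaker signalling 20 of 23 genes were tested, 3 higher and 5 lower, with a median of -0.13. Without control replicate 2 or Nat10-CKO replicate 2 the lower calls were 3. Popdc3, a cyclic AMP-binding membrane protein, rose from 10.7 ± 0.935 to 42.5 ± 2.50 FPKM. Prkar1a, a regulatory subunit of protein kinase A, rose from 120.2 ± 11.2 to 187 ± 20.7 FPKM. Adrb1, the main cardiac beta-adrenergic receptor, fell from 10.9 ± 0.549 to 4.40 ± 1.68 FPKM. Rgs6, which shortens vagal G-protein signals, fell from 2.86 ± 0.381 to 1.10 ± 0.252 FPKM. Of 10 pacemaker calcium and potassium channel genes 9 were tested, 0 higher and 2 lower, with a median of -0.21. The lower calls were 3 without Nat10-CKO replicate 3 and 1 without any other single library. They were 4 with mitochondrial genes left out, 4 under quantile normalization and 5 with array weights. Of all tested genes 24.5%, 18.8% and 25.1% were called lower under these 3 settings. Kcnj3, a G-protein-gated potassium channel gene, was 5.15, 5.60 and 6.43 FPKM in the controls and 0.481, 0.363 and 0.830 FPKM in the Nat10-CKO-labelled libraries, and fell under every setting that tested it.

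Conduction transcription factors were tested for 14 of 17 genes, 4 higher and 2 lower, with a median of 0.15. The cardiac regulators Nkx2-5 (41.9 ± 3.05 to 166 ± 12.3 FPKM), Gata4 (35.0 ± 2.95 to 107 ± 20.4 FPKM) and Irx5 (5.85 ± 1.24 to 16.5 ± 3.66 FPKM) rose. Hopx fell from 93.6 ± 15.9 to 17.4 ± 2.25 FPKM. The main counts of these lists stand against 24.4% higher and 16.0% lower among all tested genes. With 1 library left out 10.1 to 16.0% of tested genes were called lower.

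Of 20 tested neighbours on the chromosome 3 were called higher and 4 lower, where 24.4% and 16.0% of all tested genes were. These neighbours lay 9 bases to 1526 kb from the channel gene. Next to Scn4a, Cd79b, a B cell receptor gene 2.98 kb away, was 2.46 ± 0.816 against 2.14 ± 0.117 FPKM and was not called. Icam2, an endothelial adhesion molecule 12.1 kb away, fell from 18.0 ± 3.29 to 8.53 ± 1.11 FPKM. The summed level of 8 endothelial markers, of which 8 were called lower, was 349 to 415 FPKM against 209.5 to 213 FPKM, and their part in the Icam2 value was not tested. Polrmt, the mitochondrial RNA polymerase gene, lies 9 bases from Hcn2 and was 11.2 ± 0.937 against 11.4 ± 2.50 FPKM. Rnf126, 22.4 kb from Hcn2, rose 1.66-fold. Scn2b and Scn4b are themselves neighbours, 8.55 kb apart. Beside Scn3b, Gramd1b, 1.61 kb away, fell from 2.31 ± 0.349 to 1.19 ± 0.145 FPKM. Zfp202, 55.6 kb from Scn3b, rose from 0.822 ± 0.148 to 1.98 ± 0.0382 FPKM. Nptn, 170 kb from Hcn4, fell from 34.8 ± 3.18 to 22.8 ± 1.37 FPKM. Neo1, 11.5 kb from Hcn4 (13.1 ± 1.01 against 10.8 ± 1.67 FPKM), was not called.

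Over the 6 libraries, genes whose log2(FPKM + 1) ran most like Scn4a by Pearson r included Adamtsl4 and Marchf6 (0.997 and 0.996), and 477 genes reached an r of at least 0.95. For Hcn2 they were Cox14, Cyb5d2 and Ndufb3 (0.999, 0.998 and 0.996), with 239 genes at or above 0.95. For Hcn4 they were Pcbd2, Sh3bgr and Neil1 (0.994, 0.993 and 0.991), with 106 genes. Scn3b and Scn4b had fewer genes so close, 15 and 11. Those nearest to Scn3b were Nagk, Zbtb4 and Rab4a (0.988, 0.980 and 0.980), and those nearest to Scn4b Tmem160, Abhd8 and Tecpr2 (0.986, 0.978 and 0.974). Among the 5 tested channel genes the pair most alike was Hcn2 with Hcn4 (0.915) and the pair least alike Scn4a with Scn3b (-0.265). All these r values rest on the same 6 libraries and are descriptions.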

How the data were processed

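RNA from heart tissue was sequenced in 6 libraries, 3 per group. Per the labels' protocols, poly-A RNA went into directional libraries that were read as pairs on an Illumina instrument. HISAT2 2.2.1 for alignment to GRCm39 and featureCounts 2.0.6 for counting are named in the series' design text. The submitters' processing notes also list CASAVA and DESeq2 1.42.0, with no role. The strand setting and the definition of gene length were not stated there.

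The authors deposited FPKM per gene, 1 column per library. Multiplying FPKM by gene length gave whole steps for 100% of values (tolerance 0.01), from which reads per gene were recovered. For the main test limma 3.58.1 (R 4.3.3, eBayes with a trend, two-sided) was fitted on log2(FPKM + 1) for genes with a mean of at least 1 FPKM. Fits with libraries left out kept this gene set. Family shares were compared by exact permutation over libraries. The fit was also run on simulated data with few changed genes and no library standing apart, unlike these data. No pair of libraries agreed within sampling noise.

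The members and gene lists were chosen with earlier results of these data known. Named genes are the members, their families, the list genes of smallest adjusted p among those called, the 2 nearest tested neighbours per side and the 3 most alike genes per member. Marker genes are named for their level or absence. Leaving out both replicates 1, and naming Prr29, came after the data were seen. Some genes the rule takes are not reported here. 3 list genes matched by an older symbol. Python 3.11.15 and matplotlib 3.10.9 drew the figures.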

Additional observations from a re-analysis of the deposited data

How the results depend on the processing

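Scn4a kept its direction and call under every setting that tested it (log2 fold change -2.94 to -1.39). At a mean of at least 5 FPKM it was not tested, and 0 channel genes were called lower. The number of the 6 called lower was 3 with mitochondrial genes left out, 2 under quantile normalization, 2 with array weights and 1 to 2 with 1 library left out. Of all tested genes 24.5%, 18.8% and 25.1% were called lower under the first 3 of these settings. With 1 library left out it was 10.1 to 16.0%, and in the main test 16.0%. When both replicates 1 were left out, 1 of the 6 was called higher, where 24.4% of tested genes were. Hcn2 was called lower with mitochondrial genes left out (log2 fold change -1.24), under quantile normalization (-1.23) and with array weights (-0.71), and ranged over -1.43 to -0.54 with 1 library left out. Hcn4 was called lower with mitochondrial genes left out (-0.69) and ranged over -0.76 to -0.34. Scn3b ranged over -0.03 to 0.63 with 1 library left out. Its sign turned without control replicate 2 (-0.02) or 3 (-0.03) or Nat10-CKO replicate 2 (-0.0263), and it was 0.98 without both replicates 1. With 1 library left out Scn7a ranged over -0.41 to 0.06 and Scn11a over -1.73 to 0.04. Both turned without control replicate 1 (0.0637 and 0.0384), and Scn11a also without both replicates 1 (0.0615). The cause was not tested.

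The Hcn4 share differed by 0.128 percentage points (Nat10-CKO minus control), by -0.365 with reads in place of FPKM, by -0.5004 without both replicates 1 and by -1.24 to 1.30 with 1 library left out. That of Hcn2 ranged over -6.91 to 0.00566. Of 66 other family and pathway genes 14 were higher and 12 lower, and the lower count was 7 at a mean of at least 5 FPKM, 20 with array weights and 7 to 13 with 1 library left out (7 without control replicate 2 and 7 without Nat10-CKO replicate 2). With array weights 7 sodium channel partners and 5 genes of cyclic AMP signalling were higher, and 8 of the latter and 4 conduction transcription factors lower. With these weights 32.8% of all tested genes were called higher and 25.1% lower. At a mean of at least 5 FPKM 3 genes of cyclic AMP signalling and 1 conduction transcription factor were lower. At that filter 16.0% of tested genes were lower. Of the neighbours 7 were lower with mitochondrial genes left out. That scaling moved the median log2 fold change of all tested genes from 0.03 to -0.12 and the share of calls that were higher from 60.4% to 41.8%. Smarcd2, 44.6 kb from Scn4a, was called lower (adjusted p = 0.0208) and lost the call in 5 of 17 settings. With a replicate block Scn4a had a log2 fold change of -1.59 (adjusted p = 0.00459), and 1 of the 6 was called lower. Deviations correlated at 0.0373 to 0.105 in same-numbered libraries and -0.116 to 0.0722 in others. Pairing was not tested.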
